A study of Mus musculus with 11 samples.

Results

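The transglutaminases and the enzymes that process filaggrin were followed as 10 genes of mouse skin, Tgm1, Tgm2, Tgm3, Tgm5, Casp14, Asprv1, Blmh, Padi1, Padi3 and Hal. They were taken by symbol from a table of 38406 genes, and all 10 have a row in it. The libraries are mRNA of pulverized back skin from female C57BL/6 mice aged 8 to 10 weeks, 6 Trex2 KO mice (replicates 7 to 12) and 5 wild-type mice (WT, replicates 2 to 6). Trex2 encodes a keratinocyte exonuclease that removes bases from DNA ends, and the labels name the knockout line as Trex2-/-, with no Cre driver given. The back of every mouse, of either genotype, was shaved and then received 125 mg of 5% imiquimod cream daily for 4 days, and skin was taken 24 hours after the last dose. Imiquimod is an agonist of the innate receptor TLR7, and its cream produces psoriasis-like inflammation in mouse skin. Untreated skin was not analysed here, and every comparison is between genotypes within treated skin.

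Transglutaminases join proteins by bonds between glutamine and lysine side chains, and in the uppermost living layers of the epidermis they weld involucrin, loricrin and other proteins into the cornified envelope. Filaggrin is made as the long precursor profilaggrin, which is cut by proteases including SASPase (Asprv1), and it bundles keratin filaments. It is then deiminated by peptidylarginine deiminases, cut by proteases including caspase 14, and broken to free amino acids with the help of bleomycin hydrolase (Blmh). Histidase (Hal) turns the histidine so released into urocanic acid, which absorbs ultraviolet light and acidifies the skin surface. Tgm2 differs from the rest of the set, being a tissue transglutaminase found in endothelium, macrophages, fibroblasts and many other cells.

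Values are counts that the authors normalized with 1 size factor per library. The libraries held 3125366 to 15557862 counted reads in Trex2 KO and 1208896 to 5853454 in WT, and mean depth was 9301225 reads in Trex2 KO and 3715307 in WT (two-sided exact permutation test, p = 0.026). Trex2 itself averaged 1.85 ± 0.91 normalized counts in Trex2 KO skin and 1479.6 ± 446 in WT skin (SD, n = 6 and 5), with a highest Trex2 KO value of 3.47 and a lowest WT value of 1125. A minimum mean of 10 normalized counts across the 11 libraries left 13215 genes to test, among them 8 of the 10 followed here. Padi1 and Padi3 lay below that minimum. In bulk skin, fewer cells of a type and less RNA per cell cannot be told apart.

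In Trex2 KO skin 7 of the 8 tested genes had a positive log2 fold change relative to WT and 1, Tgm2, a negative one. The median was 0.98, against 0.01 over all genes tested, of which 51% were positive. It was 0.45 without Trex2 KO 9 and 12 and 0.17 with a keratinocyte marker score as a covariate, and the keratinocyte markers themselves had a median of 1.06. None of the 8 passed an adjusted p of 0.05 over all genes in limma, where 2 of 13215 genes (0.0151%) did. No member was called by edgeR's quasi-likelihood test either, against 0.0303% of all genes, nor by DESeq2, against 4.67%. At an unadjusted p under 0.05 in limma there were 5 members, Tgm1, Tgm3, Tgm5, Casp14 and Blmh, all higher in Trex2 KO, against 12.9% of all genes tested that were higher at that level. For none of the 10 did the 2 groups of libraries lie apart without overlap, which 2.32% of all genes tested did.

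**Figure D1:**
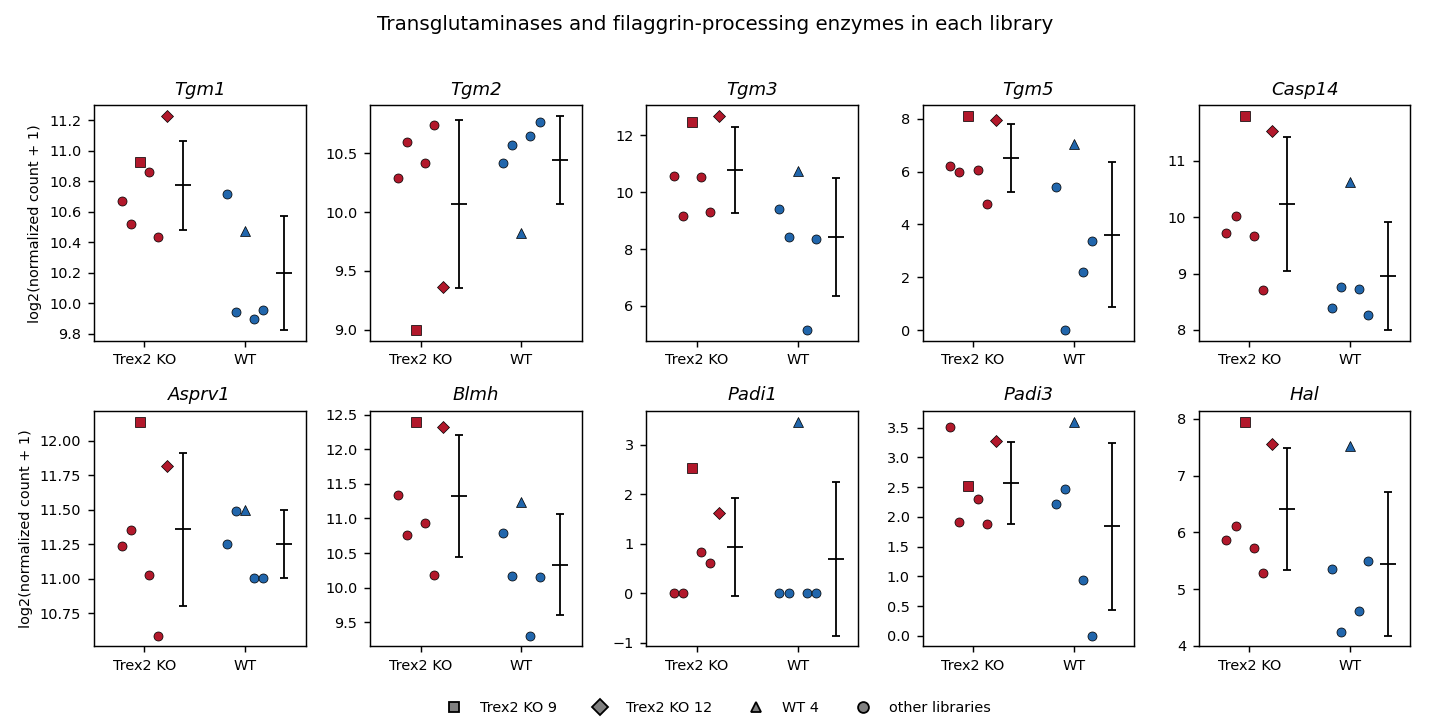
Each panel plots 1 gene as log2(normalized count + 1) per library, Trex2 KO (n = 6, red) left of WT (n = 5, blue), with the group mean and SD as a black bar, and each panel has its own axis. Squares, diamonds and triangles mark Trex2 KO 9, Trex2 KO 12 and WT 4, which lie at the top of their genotype in most panels and, for Tgm2, at the bottom.

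The levels set per kilobase of exon spanned more than 3 orders of magnitude. In both groups Asprv1 was highest, at 1807 ± 698 normalized counts per kb in Trex2 KO and 1593 ± 269 in WT (SD, n = 6 and 5), and it exceeded the next gene by more than the larger SD of the pair in each group. In Trex2 KO the order went on with Casp14 (670 ± 548 per kb), Tgm3 (658 ± 639), Tgm1 (562 ± 117), Blmh (508 ± 309) and Tgm2 (255 ± 105), and no neighbours among these differed by more than their larger SD. In WT the order after Asprv1 was Tgm1 (381 ± 104 per kb), Tgm2 (309.7 ± 70.2), Casp14 (257 ± 227), Blmh (241 ± 116) and Tgm3 (149.9 ± 158), again with no neighbours apart by more than that. Tgm3 was thus close to Tgm1 in Trex2 KO skin and the lowest of these 5 in WT skin, and the ratio of the pair is tested below. Tgm5 (39.4 ± 33.6 per kb in Trex2 KO, 11.8 ± 17.5 in WT) and Hal (19.5 ± 15.6 in Trex2 KO, 11.1 ± 12.4 in WT) came next. Padi3 and Padi1 ended both orders, at 1.61 ± 0.941 and 0.363 ± 0.488 per kb in Trex2 KO and at 1.17 ± 1.27 and 0.533 ± 1.19 in WT.

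**Figure D2:**
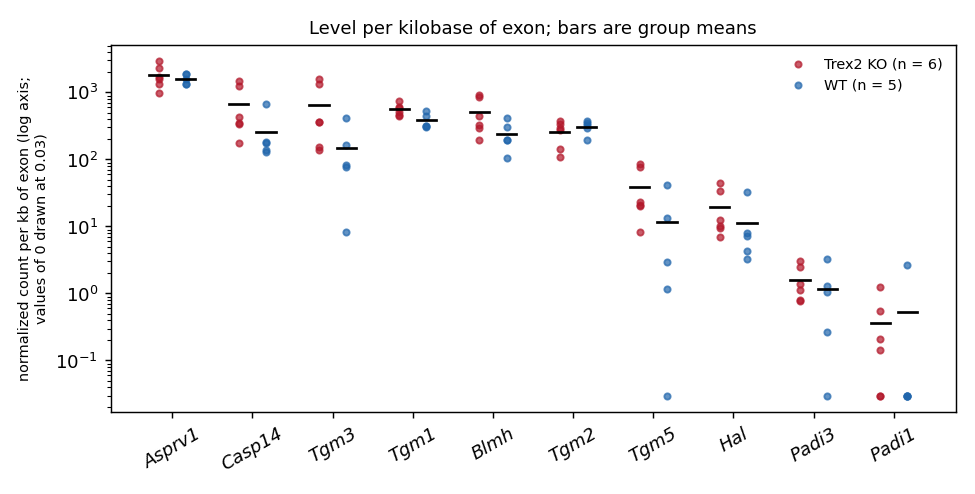
Normalized counts per kilobase of exon on a log axis, 1 point per library, Trex2 KO (n = 6) left of WT (n = 5) for each gene, with black bars at the group means and values of 0 drawn at 0.03. Asprv1 stands highest in both groups, at 1807 per kb in Trex2 KO and 1593 in WT, and Padi1 lowest.

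Tgm1, the membrane-anchored transglutaminase of keratinocytes whose loss causes lamellar ichthyosis in humans, had the smallest pooled SD within groups on the log2 scale among the tested members, although within WT alone Asprv1 had the smaller coefficient of variation (16.9%, against 27.2% for Tgm1). The annotation (GENCODE M21, GRCm38) places it on the minus strand of chromosome 14 from 55700009 to 55713926. It had a lowest, median and highest value of 1385, 1743 and 2393 normalized counts in Trex2 KO, against 1679, 984, 1423, 954 and 992 in WT replicates 2 to 6. WT 2 and WT 4 lay within the Trex2 KO range and the other 3 WT libraries below every Trex2 KO library. In limma its log2 fold change was 0.57 (SE 0.19, 95% interval 0.18 to 0.97, limma adjusted p = 0.116). Without Trex2 KO 9 and 12 it was 0.42. Tgm1 shares 182 exon bases with Gm49067 on the opposite strand, whose reads cannot be told apart from its own since the strand setting is not given in the sources used here.

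Tgm3, an epidermal and hair follicle transglutaminase that is cleaved to become active, had the widest span of the members with reads in every library. It lies on the plus strand of chromosome 2 from 130012349 to 130050399. Trex2 KO 9 and 12 had 5619 and 6526 normalized counts and the other 4 Trex2 KO libraries 1503, 569, 1482 and 626, against 684, 343, 1713, 34.5 and 323 in WT replicates 2 to 6. The highest library thus stood 189-fold above the lowest, and the WT values alone spanned 49.7-fold. The log2 fold change was 2.36 (SE 0.88, 95% interval 0.48 to 4.24, limma adjusted p = 0.142). It was 1.54 when WT 5 was left out and 1.47 without Trex2 KO 9 and 12.

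Tgm5, another epidermal transglutaminase, mutated in human acral peeling skin syndrome, was about an order of magnitude lower. It lies on the minus strand of chromosome 2 from 121046111 to 121085841. Trex2 KO 9 and 12 had 273 and 245 normalized counts and the other 4 Trex2 KO libraries 72.9, 63.1, 65.5 and 26.3, against 41.7, 0, 131, 3.63 and 9.41 in WT replicates 2 to 6. The value of 0 belongs to WT 3, the shallowest library, where 3 reads are worth 13.5 normalized counts. Tgm5 had a log2 fold change of 2.90 (SE 1.02, 95% interval 0.71 to 5.09, limma adjusted p = 0.13). It was 2.21 with a pseudocount of 5, 2.00 without WT 3, 1.52 with log10 depth as a covariate, and 1.71 in DESeq2 and 1.59 in edgeR, which model the reads. Tgm5 was the member called in limma when WT 4, its highest WT library, was left out (log2 fold change 3.76, adjusted p = 0.0384). In that setting 3.5% of all genes tested were called higher in Trex2 KO.

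Tgm2 ran the other way across the libraries. It lies on the minus strand of chromosome 2 from 158116402 to 158146436 and shares exon bases with Rprd1b and Gm20412 on the opposite strand, at most 633 with 1 of them. Its lowest Trex2 KO values were 509.6 and 659 normalized counts, in replicates 9 and 12, and the other 4 Trex2 KO libraries had 1251, 1549.7, 1365 and 1709, against 1367, 1521, 903, 1599 and 1746 in WT replicates 2 to 6. The 3 libraries that were high in Tgm3, Tgm5, Casp14 and Hal were the 3 lowest in Tgm2, and the rest of the 2 groups lay between 1251 and 1746. Relative to WT the log2 fold change was −0.38 (SE 0.30, 95% interval −1.02 to 0.27, limma adjusted p = 0.447), and it was 0.066 without Trex2 KO 9 and 12. The 7 endothelial markers were all negative, with a median of −0.37. With all libraries limma called none of them, and without WT 4 it called 2 lower, against 2.11% of all genes, and their summed level was 1335 to 3132 in Trex2 KO and 2319 to 3696 in WT. Of 6 macrophage markers 5 were negative, with a median of −0.39 and none called in limma, and their sum was 7184 to 11923 in Trex2 KO and 10862 to 16939 in WT. The 6 fibroblast markers were all negative, with a median of −0.30, none called in limma and a sum of 43814 to 67839 in Trex2 KO and 48532 to 68903 in WT. Without Trex2 KO 9 and 12 the medians were −0.083 for the endothelial, −0.22 for the macrophage and −0.24 for the fibroblast markers. Mean marker scores, in log2 units around the mean of all libraries, differed between the 3 libraries lowest in Tgm2. In Trex2 KO 9, Trex2 KO 12 and WT 4 the endothelial scores were −0.81, −0.61 and −0.10. In the same order the macrophage scores were −0.48, −0.55 and 0.69 and the fibroblast scores −0.35, −0.17 and 0.19. The part of these cells in the Tgm2 values was not tested.

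The differences between family members were tested as log2 ratios within each library, in which the size factor cancels apart from the pseudocount. The ratio of Tgm3 to Tgm1 averaged 0.01 ± 1.24 in Trex2 KO and −1.78 ± 1.83 in WT (log2, SD, n = 6 and 5), a difference of 1.79 (exact permutation test, two-sided, p = 0.0996, adjusted over 4 ratios p = 0.133). That of Tgm5 to Tgm1 averaged −4.26 ± 1.04 in Trex2 KO and −6.59 ± 2.46 in WT, a difference of 2.33 (exact permutation p = 0.0693, adjusted p = 0.133). That of Tgm2 to Tgm1 averaged −0.70 ± 0.96 in Trex2 KO and 0.25 ± 0.68 in WT, a difference of −0.95 (exact permutation p = 0.0996, adjusted p = 0.133). None of the 4 ratios passed, and the smallest exact permutation p that 6 against 5 libraries allow is 0.00433. With libraries left out the smallest possible p is larger. Without WT 4, the highest WT library of Tgm3 and Tgm5, their ratios to Tgm1 did pass, with differences of 2.30 and 3.12 (exact permutation, adjusted p = 0.0381 for both). Leaving out the WT library with the highest of these ratios raises both differences by itself, so no conclusion is drawn from them. Without Trex2 KO 9 and 12 the differences to Tgm1 were 1.04 for Tgm3, 1.72 for Tgm5 and −0.36 for Tgm2. None of these passed (exact permutation, adjusted p = 0.365 for each).

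Among the other transglutaminases, 1 of 5 was high enough to be tested. F13a1, the A subunit of coagulation factor XIII, which is also made by macrophages, had 2131 ± 397 normalized counts in Trex2 KO and 2695 ± 565 in WT (SD, n = 6 and 5; log2 fold change −0.34, or −0.18 without Trex2 KO 9 and 12, limma adjusted p = 0.244). Tgm4, Tgm6, Tgm7 and Epb42, the last listed under its older symbol Epb4.2, did not exceed 5.56 normalized counts in any Trex2 KO library or 3.63 in any WT library.

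Of the filaggrin proteases, Casp14, an epidermal caspase needed for complete filaggrin breakdown in mice, had the largest genotype difference. It lies on the minus strand of chromosome 10 from 78711991 to 78718294. Trex2 KO 9 and 12 had 3550 and 2971 normalized counts and the other 4 Trex2 KO libraries 843, 1036, 808 and 419, against 336, 433, 1582, 422 and 308 in WT replicates 2 to 6. WT 4 stood above 4 of the 6 Trex2 KO libraries, and the other 4 WT libraries lay near the lowest Trex2 KO value. Casp14 had a log2 fold change of 1.28 (SE 0.54, 95% interval 0.12 to 2.45, limma adjusted p = 0.174). Without Trex2 KO 9 and 12 it was 0.57 (adjusted p = 0.553). With WT 4, the highest WT library of this gene, left out too it was 0.99 (adjusted p = 0.0638), a setting chosen after seeing the data, in which 0.803% of all genes were called higher in Trex2 KO.

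Asprv1, the aspartic protease that cleaves the linker peptides of profilaggrin in mice, was the member with the highest level per kilobase and the smallest log2 fold change in size. It lies on the plus strand of chromosome 6 from 86628164 to 86629710. The lowest, median and highest values were 1539, 2519 and 4505 normalized counts in Trex2 KO, against 2441, 2879, 2893, 2055 and 2052 in WT replicates 2 to 6. All 5 WT libraries lay inside the Trex2 KO range. The log2 fold change was 0.11 (SE 0.24, 95% interval −0.40 to 0.62, limma adjusted p = 0.793), and it was −0.20 without Trex2 KO 9 and 12.

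Blmh, the cysteine aminopeptidase that degrades filaggrin fragments to amino acids, followed the pattern of Tgm3 with a smaller span. It lies on the plus strand of chromosome 11 from 76924809 to 76987379. Trex2 KO 9 and 12 had 5404 and 5122 normalized counts and the other 4 Trex2 KO libraries 2585, 1736, 1955 and 1164, against 1771, 1151, 2413, 629.9 and 1141 in WT replicates 2 to 6. WT 5 was lowest and WT 4 highest of the WT libraries, as for Tgm3. Blmh had a log2 fold change of 0.99 (SE 0.41, 95% interval 0.11 to 1.88, limma adjusted p = 0.169). Without Trex2 KO 9 and 12 it was 0.47.

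The epidermal deiminases, which turn arginine into citrulline on keratins and filaggrin, were at or near the limit of detection. Padi1 had 15 reads over the 6 Trex2 KO libraries and 9 over the 5 WT libraries, where all 9 were in WT 4. Padi3 had 56 reads in Trex2 KO and 14 in WT, 10 of them in WT 4. In normalized counts Padi3 had a lowest, median and highest value of 2.68, 4.35 and 10.4 in Trex2 KO, against 3.63, 4.51, 11.1, 0.908 and 0 in WT replicates 2 to 6. The 3 reads taken as the limit correspond to 1.04 to 5.21 normalized counts in Trex2 KO and 2.72 to 13.5 in WT. Padi3 had 4 to 25 reads per library in Trex2 KO, all above that limit, and 0 to 10 in WT. In limma without the minimum mean, the log2 fold change was 0.73 for Padi3 (adjusted p = 0.566) and 0.24 for Padi1 (adjusted p = 0.849). No difference was thus detected at this depth. The log2 ratio of Padi3 to Padi1 averaged 1.63 ± 1.14 in Trex2 KO and 1.15 ± 1.14 in WT (exact permutation p = 0.498). Padi1 shares 1200 exon bases with Gm13032 on the opposite strand.

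Of 3 other deiminases 2 were tested, both negative and neither called. Padi4, the deiminase of neutrophils, had 188 ± 83.0 normalized counts in Trex2 KO and 286 ± 57.4 in WT (SD, n = 6 and 5; log2 fold change −0.70, limma adjusted p = 0.155). Padi2, which is expressed in many tissues, had 22.9 ± 5.12 in Trex2 KO and 32.5 ± 7.75 in WT (log2 fold change −0.48, adjusted p = 0.235). Padi6 did not exceed 0.347 in any library.

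Hal, the histidase that makes urocanic acid, lies on the plus strand of chromosome 10 from 93488768 to 93519304. Trex2 KO 9 and 12 had 246 and 187 normalized counts and the other 4 Trex2 KO libraries 57.3, 68.6, 52.1 and 38.05, against 39.9, 18.1, 183, 23.6 and 43.9 in WT replicates 2 to 6. WT 4 thus stood level with Trex2 KO 12, and the remaining 4 libraries of each group were under 70 normalized counts. Hal had a log2 fold change of 0.97 (SE 0.58, 95% interval −0.29 to 2.22, limma adjusted p = 0.312). It was 1.49 without WT 4, 0.30 without Trex2 KO 9 and 12 and 0.35 with log10 depth as a covariate. The lowest value, 18.1 in WT 3, is 4 reads in the shallowest library, and without WT 3 the log2 fold change was 0.67.

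**Figure D3:**
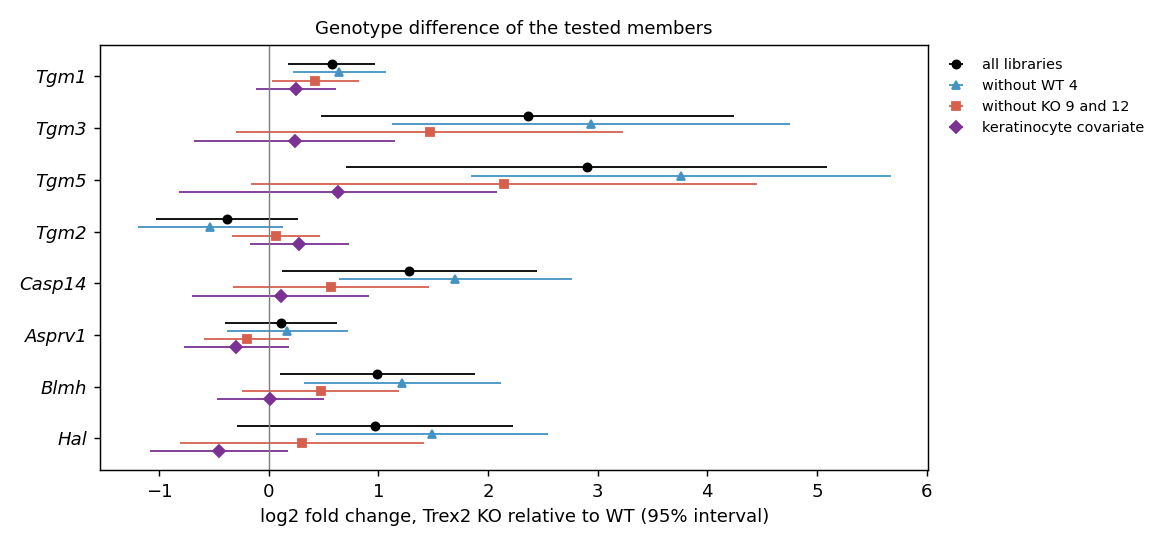
Log2 fold change of each tested gene in limma, Trex2 KO relative to WT, with its 95% interval, for all libraries (n = 6 and 5), without WT 4, without Trex2 KO 9 and 12, and with a keratinocyte marker covariate. The points move to the right without WT 4 for all genes but Tgm2, and with the covariate all intervals include 0.

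The spread within a genotype was larger for most of these genes than for most genes of skin. The pooled SD within groups of log2(normalized count + 1) had a median of 0.33 over all genes tested. It was 2.06 for Tgm5, 1.78 for Tgm3, 1.17 for Hal and 1.09 for Casp14, each above 97.9% of genes tested or more. It was 0.82 for Blmh (above 95.4%), 0.59 for Tgm2, 0.44 for Asprv1 and 0.33 for Tgm1 (above 50.6%). The Tgm5 SD includes 0 reads in WT 3, the shallowest library, and 4 and 6 reads in WT 5 and WT 6. It therefore depends on the pseudocount. In 7 of the 8 tested genes Trex2 KO 9 and 12 were the 2 highest of the 11 libraries, as they were in 12.0% of all genes tested. WT 4 was the highest WT library in 8 of the 10 genes, among them the untested Padi1 and Padi3, and in 24.5% of all genes tested. For Asprv1 the margin was small, at 2893 normalized counts against 2879 in WT 3. Trex2 KO 9, Trex2 KO 12 and WT 4 held 7097436, 15557862 and 4686194 reads.

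Keratinocyte markers moved with the same libraries. The 6 markers (Krt5, Krt14, Col17a1, Itga6, Krt1 and Krt10) were all positive, with a median log2 fold change of 1.06. Limma called 0 of them, or 3 higher without WT 4 (3.5% of all genes tested), and DESeq2 called 2 higher (2.49% of all genes tested). Their summed level was 58881 to 197014 normalized counts in Trex2 KO and 36302 to 98747 in WT. Their mean score, in log2 units around the mean of all libraries, was 1.94 in Trex2 KO 9, 1.76 in Trex2 KO 12 and 1.16 in WT 4, and between −2.18 and 0.14 in the other 8. Krt1 and Krt10, at log2 fold changes of 2.55 and 2.22, had the widest ranges and so weigh most in this score. Krt5, Krt14, Itga6 and Col17a1 stood at 0.78, 0.85, 0.90 and 1.22. Keratinocyte content and keratinocyte differentiation cannot be told apart by this score. With this score as a covariate in limma, the median of the 8 genes was 0.17 and no fold change exceeded 0.64, with Tgm1 at 0.25, Tgm3 at 0.24 and Casp14 at 0.11, while Hal was at −0.45 and Asprv1 at −0.29. The score is itself higher in Trex2 KO, so the covariate can take up part of the genotype difference. Of 11 hair sheath and shaft keratins in the table none reached the level for testing, Krt31 and Krt33b had no reads, and their sum was 0.794 to 9.01 in Trex2 KO and 3.14 to 25.6 in WT. Of 6 skeletal muscle markers 5 were negative (median −0.28, none called, sum 29550 to 66374 in Trex2 KO and 38726 to 65521 in WT), and 1 of 4 sebaceous markers was tested and not called (sum 9.86 to 67.7 in Trex2 KO and 1.81 to 91.2 in WT). With log10 depth as a covariate the median was 0.66 and no member was called.

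**Figure D4:**
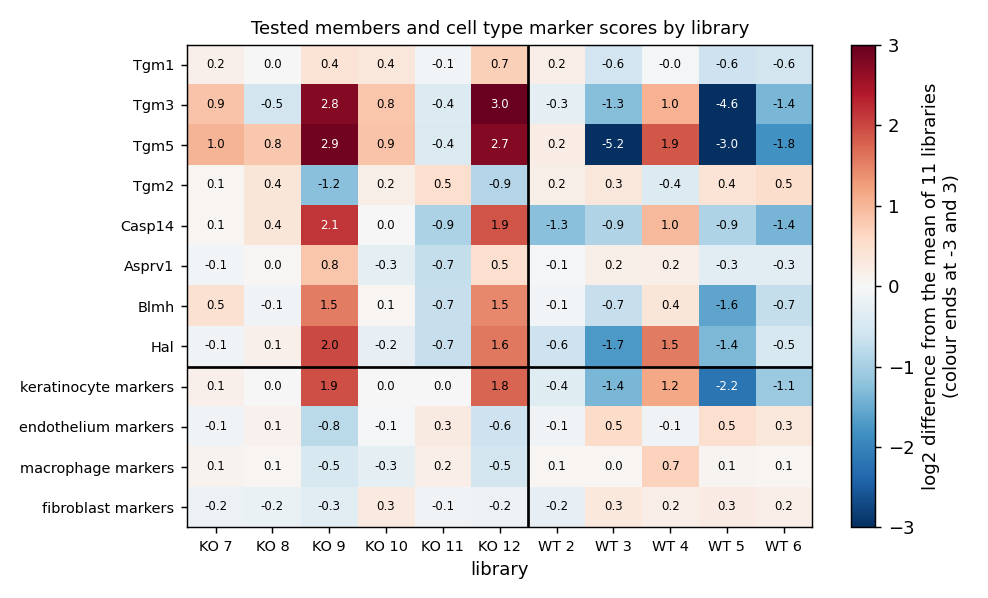
Log2 difference of each tested gene, and of 4 cell type marker scores, from its mean over the 11 libraries, with Trex2 KO libraries left of WT libraries and colours ending at −3 and 3. Trex2 KO 9, Trex2 KO 12 and WT 4 are high in Tgm3, Tgm5, Casp14, Hal and the keratinocyte score (1.94, 1.76 and 1.16) and low in Tgm2.

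The promoters shown are those of the 4 tested genes with the widest spread within groups. Moving together did not set these 4 apart, since Trex2 KO 9 and 12 were the 2 highest libraries in 7 of the 8 tested genes. Each is the 250 bases before the start site in RefSeq (GRCm38.p6), 5′ to 3′ on the strand of the gene, and 9 of the 10 genes had an entry. Capitals mark matches, on either strand, to TATAAA, to the AP-1 motif TGANTCA or to the grainyhead motif AACNNGTT.
Tgm3, chr2:130012090-130012339, plus strand: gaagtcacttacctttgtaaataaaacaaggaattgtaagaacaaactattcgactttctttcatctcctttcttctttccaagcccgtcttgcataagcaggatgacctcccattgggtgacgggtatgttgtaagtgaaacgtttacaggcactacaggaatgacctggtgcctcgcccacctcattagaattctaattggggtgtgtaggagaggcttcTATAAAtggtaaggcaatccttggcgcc
Tgm5, chr2:121085842-121086091, minus strand: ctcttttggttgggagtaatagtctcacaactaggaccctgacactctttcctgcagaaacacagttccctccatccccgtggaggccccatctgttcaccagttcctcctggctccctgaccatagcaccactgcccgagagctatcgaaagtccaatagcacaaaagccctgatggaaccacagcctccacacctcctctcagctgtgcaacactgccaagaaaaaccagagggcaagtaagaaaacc
Casp14, chr10:78718294-78718543, minus strand: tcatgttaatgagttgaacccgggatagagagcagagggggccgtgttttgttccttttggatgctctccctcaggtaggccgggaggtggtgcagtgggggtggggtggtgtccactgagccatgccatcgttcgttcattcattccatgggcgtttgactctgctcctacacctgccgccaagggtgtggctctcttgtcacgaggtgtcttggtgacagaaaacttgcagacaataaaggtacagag
Hal, chr10:93488518-93488767, plus strand: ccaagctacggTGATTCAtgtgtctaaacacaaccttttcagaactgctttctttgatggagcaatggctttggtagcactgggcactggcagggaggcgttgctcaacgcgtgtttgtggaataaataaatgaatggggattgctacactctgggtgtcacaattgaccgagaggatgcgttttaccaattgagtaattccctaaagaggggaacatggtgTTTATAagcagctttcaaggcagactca
Tgm3 and Hal hold TATAAA, in Hal on the opposite strand, with its first base 28 bases before the start in both. Hal also holds TGATTCA, a match to the AP-1 motif, 239 bases before the start. Tgm5 and Casp14 hold none of the 3 motifs in this window, and no member promoter holds AACNNGTT. Among 32851 mouse promoter windows, 12.4% hold TATAAA, 6.75% the AP-1 motif and 3.64% the grainyhead motif. No matches overlap in these windows.

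The substrates of these enzymes were positive in nearly all tested members, and none passed over all genes in limma with all libraries. Of 7 genes of filaggrin and related fused-type proteins 5 were tested, all positive, with a median log2 fold change of 2.01 (1.06 without Trex2 KO 9 and 12). DESeq2 called 0 of them and limma without WT 4 called 2 higher, against 3.5% of all genes tested. Rptn, which encodes the envelope precursor repetin, had 2024 ± 2127 normalized counts in Trex2 KO and 441 ± 793 in WT (SD, n = 6 and 5; log2 fold change 3.81, limma adjusted p = 0.115). Hrnr, hornerin, had 649 ± 623 in Trex2 KO and 206 ± 303 in WT (log2 fold change 2.01, adjusted p = 0.146). Flg itself had 404 ± 603 in Trex2 KO and 137 ± 251 in WT (log2 fold change 2.19, adjusted p = 0.242), with 1571 as its highest Trex2 KO value and 585 as its highest WT value. Tchh, trichohyalin, stood at 0.62 (adjusted p = 0.201).

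All 14 cornified envelope genes listed as transglutaminase substrates or partners were tested, 13 were positive and the median was 0.74, or 0.47 without Trex2 KO 9 and 12. DESeq2 called 4 of them higher, against 2.49% of all genes tested, and limma called 0, or 5 higher without WT 4, against 3.5%. Ivl, involucrin, had 722 ± 313 normalized counts in Trex2 KO and 240 ± 102 in WT (SD, n = 6 and 5; log2 fold change 1.57, limma adjusted p = 0.108). Ppl, periplakin, had 1243 ± 522 in Trex2 KO and 568.1 ± 224 in WT (log2 fold change 1.11, adjusted p = 0.108). Dsp, the desmosomal plaque protein desmoplakin, had 9011 ± 5155 in Trex2 KO and 3365 ± 1953 in WT (log2 fold change 1.395, adjusted p = 0.108). The abundant Sprr1a and Sprr1b, small proline-rich envelope proteins, stood at 0.29 and 0.40. Sprr3 was the negative one, with 17.96 ± 19.9 in Trex2 KO and 62.9 ± 69.2 in WT (log2 fold change −2.09, adjusted p = 0.242).

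Of 14 proteases and inhibitors that act on profilaggrin, on transglutaminases or on each other, 13 were tested, 9 were positive and none was called by limma or DESeq2. The median was 0.31, or 0.20 without Trex2 KO 9 and 12. St14, the membrane protease matriptase, stood at 0.80 with 491 ± 132 normalized counts in Trex2 KO and 291 ± 107 in WT (SD, n = 6 and 5; limma adjusted p = 0.112). Pcsk6, a proprotein convertase, stood at 0.70 (adjusted p = 0.115), and Klk7, a kallikrein of the stratum corneum, at 0.84 (adjusted p = 0.142). Ctsd and Ctsl, lysosomal cathepsins that many cell types make, were close to 0 at −0.01 and −0.03.

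Of 17 transcription factors and cofactors of keratinocyte differentiation, all tested, 16 were positive with a median of 0.73. It was 0.46 without Trex2 KO 9 and 12. DESeq2 called 7 higher, against 2.49% of all genes tested, and limma called 0, or 7 higher without WT 4, against 3.5%. Zfp750 had 675 ± 281 normalized counts in Trex2 KO and 283 ± 135 in WT (SD, n = 6 and 5; log2 fold change 1.29, limma adjusted p = 0.108). Grhl1, a grainyhead factor, stood at 1.06, Trp63, the master factor of stratified epithelium, at 0.99, and Klf4, a factor of the upper epidermis, at 0.76 (adjusted p = 0.108 for each). Maf, also made by macrophages, was the negative one at −0.21.

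**Figure D5:**
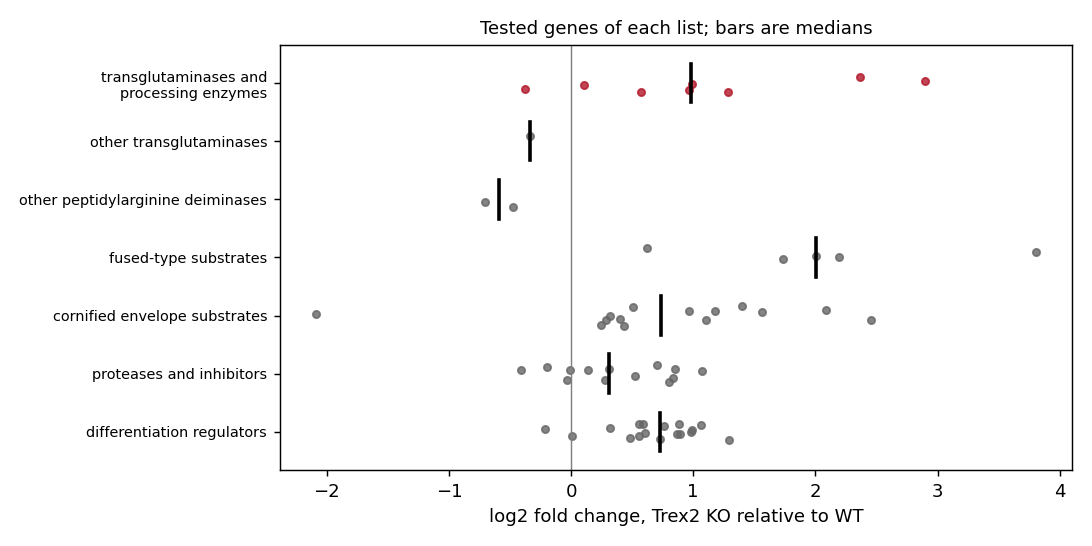
Log2 fold changes, Trex2 KO relative to WT, of the tested genes of each list, 1 point per gene, with black bars at the medians. The fused-type substrates have a median of 2.01, the 8 transglutaminases and processing enzymes 0.98, and the other deiminases −0.59.

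Some genes of other kinds had closely matching profiles. Likeness was the Pearson correlation of log2(normalized count + 1) after removing each genotype's mean, over the 11 libraries, and each member was set against 9927 other genes with a mean of at least 50. With that many genes and 11 libraries, high values arise for many genes, and they carry no test. Blmh was most like Perp, a desmosomal membrane protein (r = 0.995), and Tmem45b (0.982). Tgm5 was most like Wfdc5, a secreted inhibitor-type protein (0.985), and Ap1g2 (0.972), and Hal like Hrnr (0.985) and Sdr9c7, a dehydrogenase of barrier lipids (0.970). Tgm3 was most like Krt6b, a stress keratin (0.967), and Hpgds, a prostaglandin D synthase (0.965). Tgm1 was most like Scnn1b, a sodium channel subunit (0.983), and Unc45a, a myosin chaperone (0.977), Casp14 like Adh7 (0.963) and Osbpl1a (0.955), and Asprv1 like Zfp706 (0.932) and Sprr2d (0.929). Tgm2 was most like Fam174b (0.985) and Arid5a, an RNA-binding regulator of inflammatory transcripts (0.982).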

How the data were processed

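Values are counts that the authors divided by 1 size factor per library, a normalized signal per gene. The submitters' processing notes name GRCm38, the aligner TopHat2 2.0.8, the counter featureCounts 1.4.6 and DESeq2 1.8.1, and their settings and annotation version were not given in the sources used here. Each column was matched to its sample by the replicate number in the title. All values were whole multiples of the value of 1 read (100% within 0.01), so reads were recovered from the deposited signal. Any 2 libraries differed by more than sampling noise (chi-square over degrees of freedom at least 4.74). Replicates are biological, per the series' design text.

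The main test was limma 3.58.1 (R 4.3.3) with a mean-variance trend on log2(value + 1), for genes with a mean of at least 10 and Benjamini-Hochberg adjustment over all of them at 0.05. Fold changes are on that scale and, for low genes, depend on the pseudocount. edgeR 4.0.16 and DESeq2 1.42.0 ran on recovered reads. The scripts were tested on simulated counts. Limits from reads cover counting error only. Levels per kilobase used GENCODE M21 union exons.

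The members, the lists and most alternatives were chosen with earlier results of these data known. Genes named from the related lists are the 3 of smallest p and the 2 of highest mean per list, and Flg, Sprr3 and the low genes were chosen after their values were seen. Alternatives were other pseudocounts (0.5, 5), no filter or a minimum of 50, TMM and upper quartile scaling, depth and keratinocyte covariates and left-out libraries. Leaving out WT 4 with Trex2 KO 9 and 12 was added after seeing the data.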

Additional observations from a re-analysis of the deposited data

Results flagged for a closer look

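Among 20 groups of values (10 genes in each genotype), 3 held a library far from the others by a gap test. Its limits flag about 1 in 20 groups of normally distributed values. The rate for normalized counts such as these is not known. All 3 were WT 4: Casp14 at 1582 normalized counts against 308 to 433 in the other WT libraries, Hal at 183 against 18.1 to 43.9, and Padi1 at 10.01 against 0 in all others. The Padi1 flag rests on 9 reads and carries no weight, since with 0 in all others any library with reads is flagged. WT 4 also had the highest keratinocyte marker score of the WT libraries (1.16), and the part of that score in these values was not tested.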

How the results depend on the processing

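No paired analysis was possible because the replicate numbers of the genotypes (7 to 12 and 2 to 6) are not shared. With the keratinocyte covariate the median of the members was 0.17, and Hal (−0.45), Asprv1 (−0.29) and Tgm2 (0.28) changed sign. Without Trex2 KO 9 and 12 the median was 0.45, Asprv1 was −0.20 and Tgm2 0.066, and with WT 4 left out too Asprv1 was −0.14. Leaving out 1 library at a time gave 0 to 1 members called, 6 to 7 positive and a median of 0.72 to 1.35. The call was Tgm5 without WT 4 (3.76), and Asprv1 turned to −0.046 without Trex2 KO 9 (range −0.046 to 0.26). Differences of log2 ratios then ranged from 1.04 to 2.30 for Tgm3 to Tgm1, 1.49 to 3.12 for Tgm5 to Tgm1, −1.18 to −0.71 for Tgm2 to Tgm1 and 0.11 to 0.81 for Padi3 to Padi1. Only without WT 4, the WT library highest in Tgm3 and Tgm5, did ratios pass, Tgm3 to Tgm1 at 2.30 and Tgm5 to Tgm1 at 3.12. The protease list had a median of 0.61 without WT 2. The counts of called genes in 4 lists (envelope genes, fused-type substrates, regulators and keratinocyte markers) and of endothelial markers were 0 in limma and above 0 without WT 4. The remaining member and ratio results kept direction and side of the threshold under the alternatives run. Whole-table calls were 2 in limma, 4 in edgeR, 617 in DESeq2, 740 in limma without WT 4 and 173 without that library and Trex2 KO 9 and 12. The causes were not tested. Depth limits Padi1, Padi3, the low WT values of Tgm5 and the WT 3 value of Hal.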
